A study of Rattus norvegicus with 20 samples.

Results

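Glutathione transferases were followed in the liver of male Sprague-Dawley rats fed diets in which part of the casein was replaced by soybean. The 10 genes described here are Gstm1, Gstm2 and Gstm3 of the mu class, Gsta4 of the alpha class, Gstp1 and Gstp3 of the pi class, Gstt1 and Gstt2 of the theta class, Gstk1 of the kappa class and Gsto1 of the omega class. They were chosen by gene symbol in the array annotation, which gave 11 of the 27702 probe sets tested and 10 of 13462 genes. Gstt2 had 2 probe sets and each of the other genes had 1. The brighter Gstt2 probe set stands for that gene in all counts.

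Rats were 4 weeks old on arrival, had 5 days of adaptation on a commercial chow and then ate 1 of 4 diets for 21 days, with 5 rats per diet on arrays (20 arrays in all). The casein group had casein as its stated protein source. The conventional soybean group had protein from casein and the cultivar Fukuyutaka in equal parts. The high-isoflavone groups had protein from casein and the cultivar Yukipirika at 3:1 or at 1:1. Isoflavones are plant phenols of soybean with weak oestrogen-like activity. The conventional and the high-isoflavone 1:1 diets therefore shared the soybean proportion and differed in cultivar, whereas the high-isoflavone diets differed from each other in proportion. The labels do not state the isoflavone content of the diets. The rats on arrays were those with an average food intake, so they are not a random draw of each group.

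Glutathione transferases couple the tripeptide glutathione to reactive, electrophilic compounds, which makes these more soluble and ready for export and for breakdown to mercapturic acids. The cytosolic enzymes work as dimers, and liver is one of their richest sources. Gstp1, the placental form, is scarce in normal adult rat liver and is widely used there as a marker of preneoplastic foci. Many transferase genes respond to food compounds and drugs through the regulators Nrf2 (Nfe2l2), the constitutive androstane receptor (Nr1i3) and the pregnane X receptor (Nr1i2).

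By order along the RefSeq annotation of GRCr8, Gstp1 and Gstp3 are neighbours on chromosome 1, and Gstm3, Gstm2 and Gstm1 follow each other on chromosome 2. The 250 bases before the annotated start of these 5 genes are shown because Gstp3 and Gstm3 had the largest differences from casein, and the others are their class neighbours described beside them. RefSeq places the windows at chr1:210787685-210787934 for Gstp3, chr1:210769706-210769955 for Gstp1, chr2:198343384-198343633 for Gstm1, chr2:198316918-198317167 for Gstm2 and chr2:198300668-198300917 for Gstm3, all on the minus strand. Capitals mark matches, on either strand, to TGACNNNGC (the core of the antioxidant response element, bound by Nrf2) or to TATAAA (the TATA box).
Gstp3: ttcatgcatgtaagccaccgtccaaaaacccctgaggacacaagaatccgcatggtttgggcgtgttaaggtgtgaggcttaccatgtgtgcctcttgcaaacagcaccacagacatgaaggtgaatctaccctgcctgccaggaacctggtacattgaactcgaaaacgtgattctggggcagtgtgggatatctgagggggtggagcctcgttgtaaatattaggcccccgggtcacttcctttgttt
Gstp1: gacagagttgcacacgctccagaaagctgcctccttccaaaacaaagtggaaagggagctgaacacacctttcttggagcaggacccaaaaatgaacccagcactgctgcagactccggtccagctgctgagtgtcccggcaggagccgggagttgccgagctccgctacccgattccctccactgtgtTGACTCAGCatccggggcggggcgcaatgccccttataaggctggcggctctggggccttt
Gstm1: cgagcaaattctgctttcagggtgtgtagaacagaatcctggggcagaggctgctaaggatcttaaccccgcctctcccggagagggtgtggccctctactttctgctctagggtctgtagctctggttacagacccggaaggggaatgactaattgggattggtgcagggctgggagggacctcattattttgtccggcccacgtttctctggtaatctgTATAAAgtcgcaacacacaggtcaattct
Gstm2: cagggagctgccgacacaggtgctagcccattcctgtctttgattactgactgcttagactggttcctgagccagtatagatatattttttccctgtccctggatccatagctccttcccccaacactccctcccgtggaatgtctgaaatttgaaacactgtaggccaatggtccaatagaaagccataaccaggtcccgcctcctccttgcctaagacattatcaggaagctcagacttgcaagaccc
Gstm3: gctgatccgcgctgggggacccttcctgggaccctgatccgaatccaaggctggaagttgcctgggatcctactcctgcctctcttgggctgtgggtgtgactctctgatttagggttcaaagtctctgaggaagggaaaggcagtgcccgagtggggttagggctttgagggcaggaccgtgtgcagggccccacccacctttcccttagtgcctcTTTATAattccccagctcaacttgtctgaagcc
Gstp1 held TGACTCAGC 61 to 53 bases before its start, and the AP-1 letters TGACTCA overlap that match. Gstm1 held TATAAA 29 to 24 bases before its start, and Gstm3 held the same letters on the opposite strand, read as TTTATA, 33 to 28 bases before its start. Gstp3 and Gstm2 held neither motif in this window. Of 27457 RefSeq promoters cut to the same length, 10.2% held TGACNNNGC, 3.98% held TGACTCA and 13.1% held TATAAA on either strand. The xenobiotic response core GCGTG, which is bound by the dioxin receptor Ahr and its partner Arnt, occurred once each in Gstp1 and Gstp3, 3 times in Gsta4 and in none of the mu genes, against 27.2% of all promoters. Aligned end to end, the windows of Gstp3 and Gstp1 were identical at 49.0% of columns, and those of Gstm1 and Gstm3 at 55.4%. The 10 pairs of the 5 genes ranged from 47.1% to 55.4%, so the pi neighbours were no more alike here than members of different classes. Promoter entries were found for 8 of the 10 genes, all but Gstt1 and Gstt2.

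Values below are log2 of the array signal, so that a difference of 1 is a 2-fold difference. Signals of different probe sets are not compared, since each probe set has its own brightness. Differences were tested with limma over all 27702 probe sets, and a gene was called changed where the Benjamini-Hochberg adjusted p was under 0.05. The median signal of an array ran from 2.43 to 2.49 on casein, from 2.51 to 2.56 on conventional soybean, from 2.43 to 2.52 on the 3:1 diet and from 2.45 to 2.57 on the 1:1 diet. On 2 arrays, casein replicate 5 and 3:1 replicate 1, the lowest signals stood higher (0.45 and 0.47) than on the other 18 arrays (at most -0.88). Where a call was refitted without these arrays and ended, that value is given. The calls of Gpx1, Krt19 and Cfd below were not refitted in this way. Nor was the call of Gclm over the soybean diets together. Hepatocyte markers such as albumin and transthyretin were bright on every array, with 7 of 8 measured and a summed signal of 12.2 to 12.5. Limma called 0 of the 7 in any comparison, where 0 to 2.21% of all probe sets were called. At an unadjusted limma p under 0.05 there were at most 3 of the 7. These 3 were found on the 1:1 diet against casein, where 16.8% of all probe sets passed. For the soybean diets together there were also 3, against 16.4%. A lower signal in whole liver can come from fewer cells of a type or from less RNA per cell, and these cannot be told apart here.

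Gstp3 was the transferase with the largest difference from casein on the conventional soybean diet and the only one of the 10 that was called there. Its signals on casein were 6.95, 6.18, 5.93, 5.59 and 6.33. On conventional soybean they were 8.01, 7.25, 7.97, 7.21 and 7.51. Every rat on conventional soybean lay above every rat on casein. On the 3:1 diet the signals were 7.74, 7.96, 6.98, 5.93 and 7.84, and on the 1:1 diet 7.58, 7.87, 7.09, 6.52 and 7.10. In each high-isoflavone group 4 of 5 rats lay above all casein rats, and the exception on the 3:1 diet, replicate 4, fell among the lower casein values.

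The mean of Gstp3 was 6.19 ± 0.508 on casein and 7.59 ± 0.383 on conventional soybean (SD, n = 5 each), a rise of 1.40 (2.63-fold; SE 0.329; 95% interval 0.71 to 2.08; limma adjusted p = 0.0353). The 1:1 mean of 7.23 ± 0.520 was 1.04 above casein (2.05-fold; interval 0.36 to 1.72; limma adjusted p = 0.102), and the 3:1 mean of 7.29 ± 0.853 was 1.10 above it (2.14-fold; interval 0.41 to 1.78; limma adjusted p = 0.292). In order of level the diets ran conventional soybean, 3:1, 1:1 and casein, and the soybean diets lay within 1 SD of each other. The 1:1 diet differed from conventional soybean by -0.36 (interval -1.04 to 0.33; limma adjusted p = 0.880) and from the 3:1 diet by -0.06 (interval -0.74 to 0.63; limma adjusted p = 0.982), so neither direction was resolved. These comparisons with casein share the same 5 casein rats.

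The conventional soybean call for Gstp3 depended on single arrays and on the setting. It ended in 7 of the 20 fits that left out 1 array, namely without casein replicate 2, 3, 4 or 5 or conventional replicate 1, 3 or 5, with a difference of 1.25 to 1.59 and an adjusted p of 0.0084 to 0.0796 over the 20 fits. It also ended when arrays were centred and scaled to a common spread (1.24, adjusted p = 0.0630), without the 2 arrays with the higher lowest signals (1.43, adjusted p = 0.0738) and without number 1 of all groups (1.48, adjusted p = 0.0508). The call was kept in the other 6 of 9 settings, and the adjusted p over the 9 ran from 0.00406 to 0.0738.

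Across all probe sets, 1.64% were called between conventional soybean and casein in either direction and 1.01% were called higher. Of the 10 transferases 1 was called, higher, 4 had an unadjusted limma p under 0.05 (16.8% of all probe sets), and 8 had a mean above casein, against 58.5% of all genes above 0. Their median difference was 0.24, against 0.04 over all genes. Groups did not overlap for Gstp3 and Gstm3, both higher, where 2.97% of all probe sets had non-overlapping higher groups. As deposited, 62.0% of all calls in this comparison were higher, against 35.4% after quantile normalization and 25.1% after centring and scaling, under which 7 of the 10 transferases stayed above casein with a median of 0.21 and 0.09. The median difference of all genes was therefore kept beside that of the transferases.

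On the 1:1 diet 0 of the 10 transferases were called against casein, where 2.21% of all probe sets were called. There, 9 had a mean above casein, with a median of 0.21 (0.03 over all genes, 56.7% of them above 0), and 2 had an unadjusted limma p under 0.05, which 16.8% of all probe sets had. On the 3:1 diet 0 were called where 0.0397% of all probe sets were called. Here too 9 lay above casein, with a median of 0.29 (0.01 over all genes, 53.8% above 0), and 3 had an unadjusted limma p under 0.05, against 8.12% of all probe sets. After centring and scaling, 8 of the 10 lay above casein on each of these diets.

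**Figure D1:**
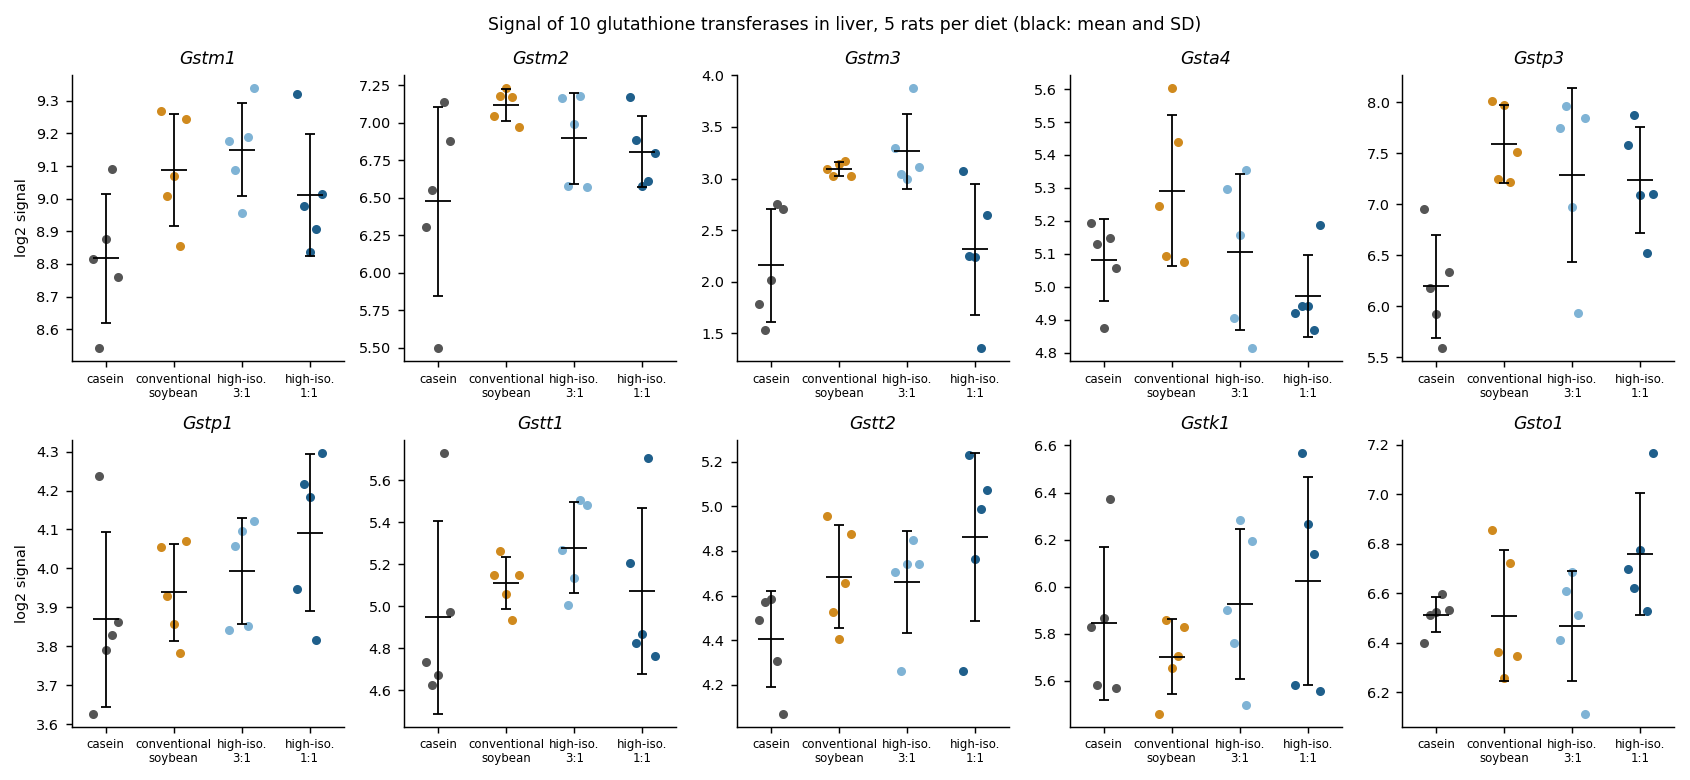
Each panel plots the log2 signal of 1 transferase (vertical axis, own scale) in the 5 rats of each diet (coloured points), with the mean as a long black bar and the SD as whiskers. For Gstp3 all 5 rats on conventional soybean sit above all casein rats, while for Gstm3 the conventional and 3:1 rats sit above all casein rats and the 1:1 rats spread over the casein range.

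Gstm3, a mu-class enzyme, had another pattern over the diets, though none of its differences was called. Its means of 2.16 on casein and 2.31 on the 1:1 diet lay below the median signal of every array (2.43 to 2.57). Its casein signals were 1.79, 1.53, 2.02, 2.75 and 2.70. On conventional soybean they were 3.09, 3.02, 3.14, 3.17 and 3.02, and on the 3:1 diet 3.30, 3.04, 2.99, 3.88 and 3.12. All 10 rats of these diets lay above all 5 casein rats. On the 1:1 diet the signals were 3.07, 2.25, 2.24, 1.36 and 2.65, which spanned the whole casein range.

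The Gstm3 mean on conventional soybean (3.09 ± 0.0673, SD, n = 5) was 0.93 above the casein mean of 2.16 ± 0.548 (1.91-fold; SE 0.260; interval 0.39 to 1.47; limma adjusted p = 0.0707). The 3:1 mean of 3.27 ± 0.363 was 1.11 above casein (2.15-fold; interval 0.57 to 1.65; limma adjusted p = 0.151), and Gstm3 was the only one of the 10 whose 3:1 and casein rats did not overlap, which 1.81% of all probe sets showed in either direction and 1.09% showed as higher. The 1:1 mean of 2.31 ± 0.635 was 0.16 above casein (interval -0.39 to 0.70; limma adjusted p = 0.826). None of these differences passed the threshold. The conventional soybean difference did pass it without 1:1 replicate 1 (adjusted p = 0.0496) or replicate 4 (adjusted p = 0.0377), both of which enter only through the shared estimate of spread.

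Between the soybean diets, Gstm3 had the smallest p of the 10 in both comparisons with the 1:1 diet. It differed by -0.95 from the 3:1 diet (interval -1.49 to -0.41; unadjusted p = 0.0014; limma adjusted p = 0.464) and by -0.78 from conventional soybean (interval -1.32 to -0.24; unadjusted p = 0.0070; limma adjusted p = 0.482). In both, 4 of 5 rats on the 1:1 diet lay below every rat of the other group, and replicate 1, at 3.07, was the exception. No transferase was called in either comparison. Among all probe sets 0.0758% were called between the 1:1 and conventional diets, where 2 of the 10 transferases and 7.07% of all probe sets had an unadjusted limma p under 0.05, and 0 were called between the 1:1 and 3:1 diets, where 2 of the 10 transferases and 2000 of 27702 probe sets (7.22%) had an unadjusted limma p under 0.05 and no other tool was run. The spread among rats differed as well, with an SD of 0.0673 on conventional soybean against 0.548 on casein and 0.635 on the 1:1 diet. That difference in spread was not tested, and the casein and 1:1 means lay below the median signal of every array.

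Gstm2, another mu-class subunit, had signals of 6.31, 6.55, 5.50, 7.14 and 6.88 on casein and of 7.04, 7.18, 7.23, 7.17 and 6.97 on conventional soybean. The casein rats were scattered and 2 of them reached into or near the narrow conventional range, so that 3 of 5 conventional rats exceeded all casein rats. On the 3:1 diet Gstm2 was 7.16, 6.58, 6.99, 7.18 and 6.57, and on the 1:1 diet 7.17, 6.88, 6.58, 6.61 and 6.80. The conventional mean of 7.12 ± 0.108 was 0.64 above the casein mean of 6.47 ± 0.631 (1.56-fold; SE 0.211; interval 0.21 to 1.08; limma adjusted p = 0.120). The 3:1 and 1:1 means, 6.89 ± 0.302 and 6.81 ± 0.238, were 0.42 and 0.33 above casein (limma adjusted p = 0.644 and 0.460).

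Gstm1, a mu subunit abundant in rat liver, stayed within a much narrower range. Casein rats had 8.81, 8.54, 8.88, 9.09 and 8.76, conventional rats 9.27, 9.01, 9.07, 8.85 and 9.24, 3:1 rats 9.18, 9.09, 8.96, 9.19 and 9.34, and 1:1 rats 9.32, 8.98, 8.84, 8.91 and 9.01. All groups overlapped. The differences from casein were 0.27 on conventional soybean (interval 0.05 to 0.49; limma adjusted p = 0.191), 0.33 on the 3:1 diet (interval 0.11 to 0.55; limma adjusted p = 0.334) and 0.19 on the 1:1 diet (interval -0.03 to 0.41; limma adjusted p = 0.372), each with an SE of 0.106. Centring and scaling moved the conventional and 1:1 differences to 0.09 and -0.01, so the direction on the 1:1 diet rested on the scaling.

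**Figure D2:**
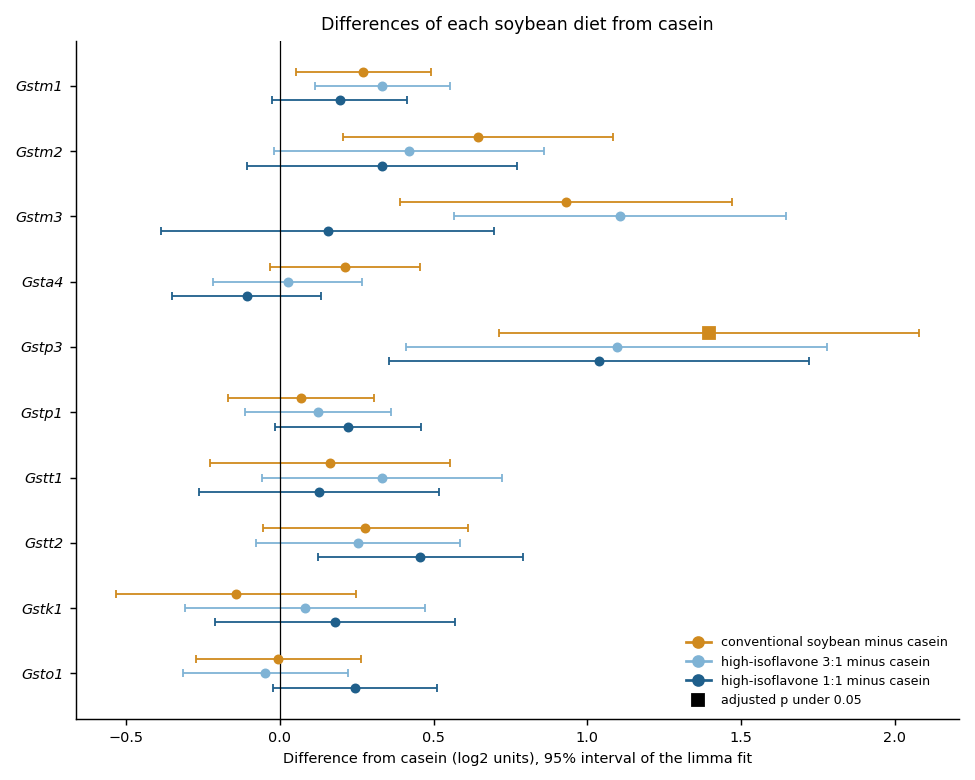
Points show the difference of each soybean diet from casein on the log2 scale (horizontal axis) for the 10 transferases (vertical axis), with 95% intervals of the limma fit. The square marks the adjusted p under 0.05, which Gstp3 on conventional soybean alone reached, and the intervals of Gstm3 on conventional soybean and on the 3:1 diet lie to the right of 0 while that on the 1:1 diet covers it.

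Gstp1, the pi-class neighbour of Gstp3, stayed within a narrow band. Its signals were 3.63, 4.24, 3.79, 3.83 and 3.86 on casein and 4.06, 3.93, 3.86, 3.78 and 4.07 on conventional soybean. They were 3.84, 4.06, 4.09, 3.85 and 4.12 on the 3:1 diet and 3.95, 4.22, 4.18, 3.82 and 4.30 on the 1:1 diet. All groups overlapped, and casein replicate 2 at 4.24 lay above every conventional and 3:1 rat. The difference of conventional soybean from casein was 0.07 (SE 0.114; interval -0.17 to 0.31; limma adjusted p = 0.793), which turned to -0.02 after centring and scaling. The interval for Gstp1 lay wholly below that for Gstp3 in this comparison, although the difference between the genes was not itself tested. On the 1:1 diet Gstp1 was 0.22 above casein (interval -0.02 to 0.46; limma adjusted p = 0.341). Whether the Gstp3 and Gstp1 probe sets also read each other's messenger RNA was not examined.

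The theta-class genes encode enzymes that act on small halogenated compounds and sulfate esters. Gstt2 was the member after Gstp3 with the smallest p on the 1:1 diet. Its signals were 4.49, 4.57, 4.58, 4.31 and 4.07 on casein and 4.26, 5.23, 4.76, 4.99 and 5.07 on the 1:1 diet, where 4 of 5 rats exceeded all casein rats and replicate 1 did not. The difference was 0.46 (1.37-fold; SE 0.160; interval 0.13 to 0.79; limma adjusted p = 0.140). It passed the threshold without 1:1 replicate 1 (adjusted p = 0.0293) and without number 1 of all groups (0.63, adjusted p = 0.0470). Gstt2 was 0.28 above casein on conventional soybean (signals 4.96, 4.53, 4.41, 4.66 and 4.87; limma adjusted p = 0.386) and 0.25 above on the 3:1 diet (4.70, 4.26, 4.74, 4.85 and 4.74; limma adjusted p = 0.743). The dimmer Gstt2 probe set had means of 2.78 on casein, 2.96 on conventional soybean, 2.90 on the 3:1 diet and 2.97 on the 1:1 diet, above casein on each soybean diet, with limma adjusted p of 0.502, 0.886 and 0.495 in that order of diets.

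Gstt1 had its highest mean on the 3:1 diet (5.28 ± 0.217), 0.33 above the casein mean of 4.95 ± 0.458 (interval -0.06 to 0.72; limma adjusted p = 0.703). Its casein rats held both the lowest and the highest signals of the 20, 4.63 and 5.73. On conventional soybean and on the 1:1 diet Gstt1 was 0.16 and 0.13 above casein, less than its pooled SD within diets of 0.327.

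Gsta4 encodes the alpha enzyme that detoxifies lipid-derived aldehydes such as hydroxynonenal. It ran from conventional soybean (5.29 ± 0.229) through the 3:1 diet (5.11 ± 0.238) and casein (5.08 ± 0.125) to the 1:1 diet (4.97 ± 0.124). Conventional rats had 5.25, 5.09, 5.60, 5.44 and 5.07, and 1:1 rats had 4.92, 4.94, 4.94, 4.87 and 5.19, so 4 of 5 rats on the 1:1 diet lay below every conventional rat. The difference was -0.32 (interval -0.56 to -0.08; unadjusted p = 0.0125; limma adjusted p = 0.563). Against casein it was 0.21 above on conventional soybean (limma adjusted p = 0.368) and differed by -0.11 on the 1:1 diet (limma adjusted p = 0.705), the one member whose 1:1 mean was below casein.

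Gsto1, the omega enzyme with thioltransferase and dehydroascorbate reductase activity, was tight on casein (6.40 to 6.60, median 6.52) and reached 6.53 to 7.17 on the 1:1 diet (median 6.70). The 1:1 mean of 6.76 ± 0.246 was 0.24 above casein (interval -0.02 to 0.51; limma adjusted p = 0.355) and 0.29 above the 3:1 diet (interval 0.02 to 0.56; unadjusted p = 0.0342; limma adjusted p = 0.663). Its means on conventional soybean and the 3:1 diet, 6.51 and 6.47, differed from the casein mean of 6.51 by less than 1 SD. Gstk1, the kappa enzyme of mitochondria and peroxisomes, was the only member with its lowest mean on conventional soybean (5.70 ± 0.159). It differed from casein by -0.14 there (interval -0.53 to 0.25) and was 0.08 above casein on the 3:1 diet and 0.18 above on the 1:1 diet, none past its pooled SD of 0.328.

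Within diets the 10 genes varied very unequally among rats. The pooled SD was 0.176 for Gstm1, 0.177 for Gstp1, 0.187 for Gsta4 and 0.215 for Gsto1. It was 0.271 for Gstt2, 0.327 for Gstt1, 0.328 for Gstk1 and 0.373 for Gstm2, and highest for Gstm3 at 0.458 and Gstp3 at 0.592. The members with the largest differences between diets thus also had the highest pooled SD. For Gstm3 that value pooled unlike groups, from an SD of 0.0673 on conventional soybean to 0.635 on the 1:1 diet.

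A comparison of the mean of the 3 soybean diets with casein was added after the differences had been seen to lie mostly on one side. In it Gstp3 rose by 1.18 (2.26-fold; SE 0.269; interval 0.62 to 1.74; limma adjusted p = 0.0236), with 13 of 15 soybean rats above all casein rats, and was the only member called, where 2.14% of all probe sets were called. An unadjusted limma p under 0.05 was found for 5 of the 10 and for 16.4% of all probe sets. The call ended without casein replicate 2, 3, 4 or 5 (adjusted p up to 0.0871), after centring and scaling (0.0536) and without the 2 arrays with the higher lowest signals (0.0780). Gstm3 was 0.73 above casein (limma adjusted p = 0.0756), Gstm2 0.47 (0.166), Gstt2 0.33 (0.202) and Gstm1 0.27 (0.110). All 10 means were above casein, against 57.0% of all genes, with a median of 0.24 against 0.03, and 7 of 10 remained above after centring and scaling.

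Some of the genes varied together over the 20 arrays. The permutation p values below belong to correlations over all arrays, which include differences between diets. Correlations within diets are given beside them and were not tested. Of the 45 pairs among the 10 genes, Gstm1 and Gstm3 had the highest correlation over the 20 arrays (r = 0.695, permutation p = 0.00061, adjusted over the 45 pairs 0.0275; rho = 0.674, permutation p = 0.00142, adjusted 0.0303). Without the 2 rats farthest from the median of Gstm1 it was 0.611, and after subtraction of diet means it was 0.536. Gstm2 and Gstm3 followed (r = 0.641, permutation p = 0.0023, adjusted 0.0517; rho = 0.695, adjusted 0.0303), with 0.651 without the 2 farthest rats and 0.558 within diets. Pairs across classes came next, with r = 0.566 for Gstm1 and Gstt1 (adjusted permutation p = 0.136; rho = 0.663, adjusted 0.0303; 0.480 within diets) and r = 0.550 for Gsta4 and Gstm2 (adjusted permutation p = 0.136; 0.517 within diets). The mu pair Gstm1 and Gstm2 was less close than these (r = 0.401, adjusted permutation p = 0.357; 0.146 within diets), and the pi pair Gstp1 and Gstp3 had r = 0.302 (adjusted permutation p = 0.532). Gstp3 and Gstm3, both higher on conventional soybean, had r = 0.330 (adjusted permutation p = 0.532) and -0.14 within diets. The median r of the 45 pairs was 0.04, and 25 were positive. Samples of 1 array share its scaling and its RNA, which these correlations do not separate.

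**Figure D3:**
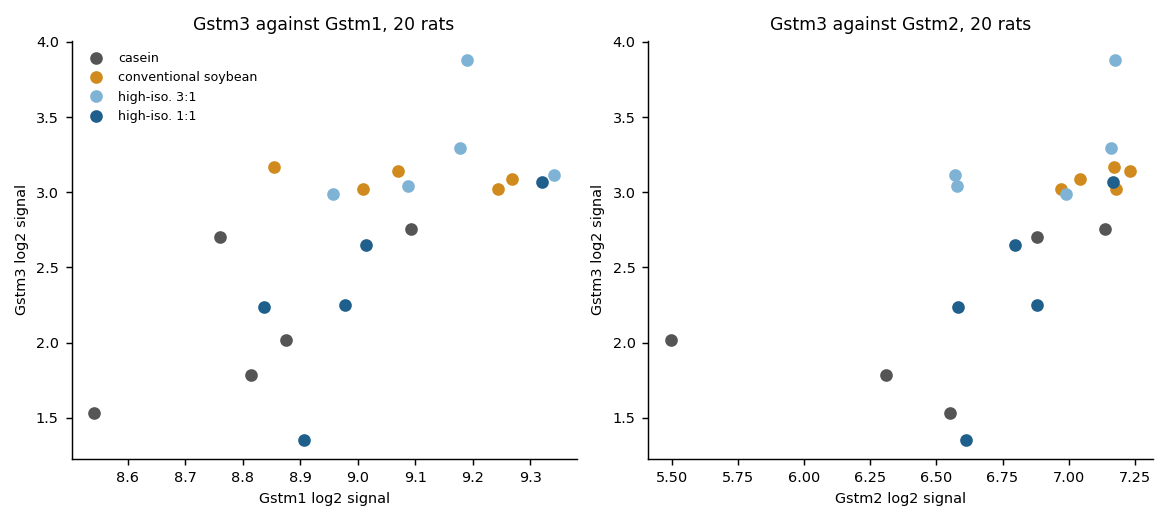
Each point is 1 of 20 rats, coloured by diet, with the log2 signal of Gstm3 on the vertical axis against Gstm1 (left) or Gstm2 (right) on the horizontal axis. Rats low in Gstm3 are mostly casein and 1:1 rats with low Gstm1 and Gstm2 signals, with r = 0.695 on the left and r = 0.641 on the right.

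The genes outside the 10 with the most similar pattern were taken from 10138 probe sets of single genes brighter than the median, by Pearson's r over the 20 arrays. For Gstp3 they were Plac9 (0.818), Cep128 (0.816) and Tmem216 (0.795). For Gstm3 they were Stk16 (0.697), Elac1 (0.691) and Mideas (0.685), and Elac1 was also among the 3 closest to Gstm1 (0.812). For Gstm2 the closest was Megf6 (0.883). For Gsto1 they were Lrtm2 (0.684), Glrx (0.680) and Ndufs3 (0.668). Glrx is the glutaredoxin gene, whose product also reduces mixed disulfides of glutathione. Its value came from a probe set other than its brightest, which was not among the 3 closest. These values are descriptions, being the highest of many correlations.

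Of 22 other transferase genes listed, 14 were measured and 0 were called in each of the 5 planned comparisons and the added one; at an unadjusted limma p under 0.05 there were 3 of 14 on conventional soybean and 3 on the 1:1 diet, against 16.8% of all probe sets in each. On conventional soybean 11 of 14 were above casein, with a median of 0.12 against 0.04 for all genes. On the 1:1 diet 7 of 14 were above casein, with a median of -0.007 against 0.03. On the 3:1 diet 10 of 14 were, with 0.05 against 0.01. Between the 1:1 and conventional diets 13 of 14 lay below 0, with a median of -0.15 against -0.01, where 47.3% of all genes lay above 0. Gstm5 had the smallest adjusted p of the list, with casein signals of 0.42 to 1.66 against conventional soybean signals of 1.48 to 2.47, a difference of 0.98 (1.98-fold; SE 0.256; limma adjusted p = 0.0537). Its means on casein (1.03) and conventional soybean (2.01) lay below the median signal of every array (2.43 at the lowest). Gstm5 passed the threshold in 3 of the 20 fits that left out 1 array, where the adjusted p ran from 0.0373 to 0.135. The filter on dim probe sets removed Gstm5, so a result was present in 8 of the 9 other settings and passed in 2 of them. The adjusted p over these 8 ran from 0.0285 to 0.102, and was 0.0481 when the rats numbered 1 were left out. Gstm4 and Gstm7, named after their values were seen because they complete the mu class measured here, were 0.30 and 0.55 above casein on conventional soybean (limma adjusted p = 0.272 and 0.0993), 0.39 and 0.49 on the 3:1 diet (both 0.434) and 0.17 and 0.37 on the 1:1 diet (0.585 and 0.277). Whether mu genes of like sequence share probes was not examined.

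Genes of glutathione supply were listed next. Of 21 genes of glutathione synthesis and recycling, all measured, Gclm was the only one called on conventional soybean and on the 1:1 diet. Of all probe sets, 1.64% and 2.21% were called on these diets. On the 3:1 diet 0 of the 21 were called, where 0.0397% of all probe sets were called. There, 3 had an unadjusted limma p under 0.05, against 8.12% of all probe sets. Gclm encodes the modifier subunit of glutamate-cysteine ligase, which limits the rate of glutathione synthesis. Its signals were 3.65, 4.09, 3.91, 3.48 and 3.91 on casein and 4.83, 5.12, 4.43, 4.45 and 4.59 on conventional soybean. On the 3:1 diet they were 4.31, 4.77, 4.65, 4.96 and 4.24, and on the 1:1 diet 4.69, 5.17, 4.63, 5.61 and 4.89. All 15 soybean rats lay above all 5 casein rats, which 0.209% of all probe sets showed. Gclm rose by 0.87 on conventional soybean (1.83-fold; SE 0.183; limma adjusted p = 0.0198) and by 1.19 on the 1:1 diet (2.28-fold; limma adjusted p = 0.00116), and was 0.78 above casein on the 3:1 diet (limma adjusted p = 0.151). In the added comparison of the 3 soybean diets together with casein, Gpx1, a glutathione peroxidase, was called as well as Gclm (0.29 higher, limma adjusted p = 0.0358). Of all probe sets, 2.14% were called in that comparison. The conventional Gclm call ended without the 2 arrays with the higher lowest signals (0.90, adjusted p = 0.05003) and without number 1 of all groups (0.0701).

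Of 21 genes listed for conjugate export and mercapturate formation, 17 were measured. On conventional soybean 2 were called higher and on the 1:1 diet 1, with 0 lower. Of all probe sets, 1.64% and 2.21% were called on these diets. Nat8 encodes the acetyltransferase that completes the mercapturate. Its signals were 1.71 to 2.43 on casein, 2.67 to 4.47 on conventional soybean, 2.66 to 3.45 on the 3:1 diet and 2.47 to 3.85 on the 1:1 diet, so no soybean rat reached down to the casein range. Nat8 rose by 1.42 on conventional soybean (2.67-fold; SE 0.272; limma adjusted p = 0.0120) and by 1.11 on the 1:1 diet (2.15-fold; limma adjusted p = 0.0345). The casein mean of Nat8 (2.15) lay below the median signal of every array (2.43 at the lowest). The 1:1 call of Nat8 ended in 7 of the 20 fits without 1 array (adjusted p up to 0.1004), without the 2 arrays with the higher lowest signals (0.0780) and without number 1 of all groups (0.0593). Lap3, a leucine aminopeptidase that can cleave the cysteinylglycine intermediate, rose by 0.44 on conventional soybean (1.35-fold; limma adjusted p = 0.0419). That call was lost in 10 of the 20 fits (adjusted p up to 0.113) and in 5 of 9 other settings (up to 0.108, without the 2 arrays with the higher lowest signals). The median of the 17 genes was 0.03 on conventional soybean (0.04 over all genes) and 0.08 on the 1:1 diet (0.03 over all genes).

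Of 15 regulators listed, 14 were measured and 1 was called, on the 1:1 diet, where 2.21% of all probe sets were called. Nr1i3, the constitutive androstane receptor, had signals of 0.99 to 2.11 on casein and of 2.59 to 3.03 on the 1:1 diet, a rise of 1.20 (2.30-fold; SE 0.282; limma adjusted p = 0.0250), which was lost in 5 of the 20 fits (adjusted p up to 0.0735) and when number 1 of every group was left out (0.109). On conventional soybean Nr1i3 was 1.01 above casein (limma adjusted p = 0.0702) and on the 3:1 diet 0.17 (limma adjusted p = 0.936). Its means on casein (1.62) and the 3:1 diet (1.80) lay below the median signal of every array (2.43 at the lowest).

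**Figure D4:**
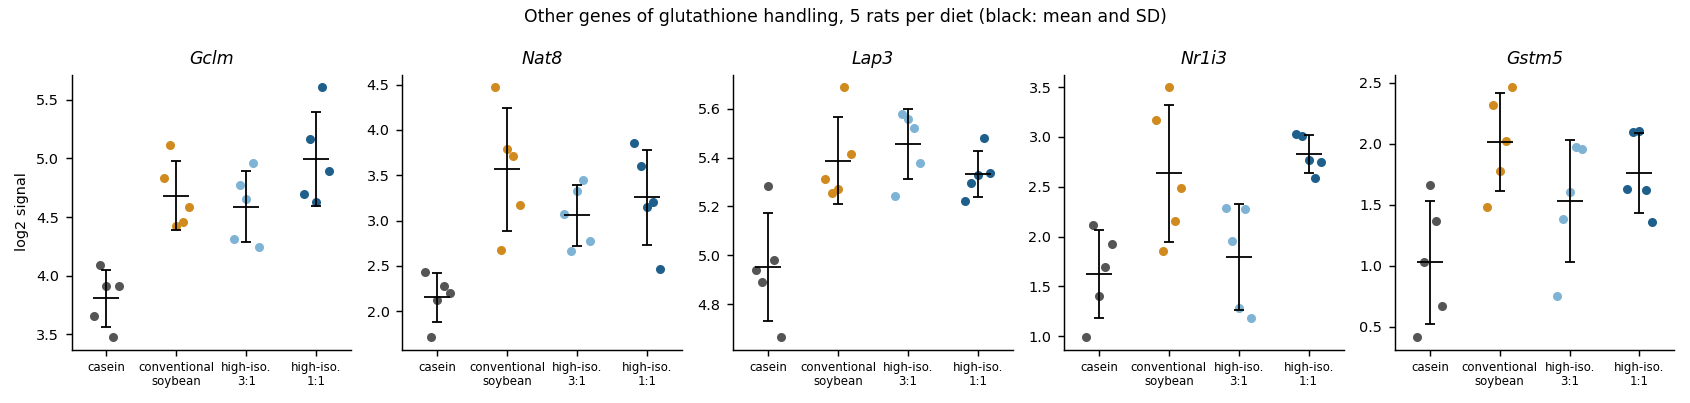
Each panel plots the log2 signal (vertical axis, own scale) of 1 gene outside the 10, in the 5 rats of each diet (points), with mean and SD in black. Gclm and Nat8 show every soybean rat above every casein rat, as did 0.209% of all probe sets. Nr1i3 has every 1:1 rat above every casein rat, as did 2.38% of all probe sets. The casein and conventional ranges of Gstm5 overlap between 1.48 and 1.66.

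Markers of other cells that liver tissue can hold were read on the same arrays. Of 8 bile duct markers 5 were measured, and Epcam fell by 0.71 on conventional soybean (limma adjusted p = 0.0257, up to 0.0723 in the fits without 1 array, 5 of which lost the call, and 0.0691 without the 2 arrays with the higher lowest signals) and by 0.95 on the 1:1 diet (limma adjusted p = 0.00251). Another of these markers, Krt19, was 1.01 and 0.88 above casein on these diets (limma adjusted p = 0.0868 and 0.127) and was called higher in the added comparison (0.97; limma adjusted p = 0.0391). The median of the 5 was -0.08 on conventional soybean and 0.02 on the 1:1 diet. The summed bile duct signal was 4.26 to 4.77 on casein, 4.37 to 4.83 on conventional soybean, 4.44 to 4.61 on the 3:1 diet and 4.49 to 4.61 on the 1:1 diet. Of 10 Kupffer cell markers 8 were measured and 0 were called. Of all probe sets, 1.64% were called on conventional soybean, 2.21% on the 1:1 diet, 0.0397% on the 3:1 diet and 2.14% in the added comparison. All 8 Kupffer cell markers lay below casein on the 1:1 diet (median -0.32), where 56.7% of all genes lay above 0. Of these, 5 had an unadjusted limma p under 0.05, against 16.8% of all probe sets. All 8 also lay below casein on the 3:1 diet (median -0.09) and 7 on conventional soybean (-0.14), where 53.8% and 58.5% of all genes lay above 0. On these diets 0 had an unadjusted limma p under 0.05, against 8.12% and 16.8% of all probe sets. On the 1:1 diet all 8 were lower than on conventional soybean (median -0.20) and the 3:1 diet (-0.23). Summed signals were 7.60 to 8.24 on casein and 7.46 to 7.71 on the 1:1 diet. Of 5 adipose markers 2 were measured, and Cfd fell by 0.64 on the 1:1 diet (limma adjusted p = 0.0334), with summed signals of 3.42 to 4.03 on casein and 3.12 to 3.63 on the 1:1 diet. Of pancreas, lymphocyte, endothelial, stellate and red blood cell markers 0 were called in any comparison. On conventional soybean 5 of 5 pancreas markers lay above casein (median 0.19), as did 4 of 5 lymphocyte markers (0.21). There, 3 of 5 endothelial (0.01), 4 of 8 stellate (0.01) and 0 of 2 red blood cell markers (-0.18) lay above casein. The median of all genes was 0.04. The difference between the 3′ and 5′ probe sets of actin, a sign of RNA quality, was 1.29 to 1.53 on casein, 1.32 to 1.83 on conventional soybean, 1.35 to 2.13 on the 3:1 diet and 1.07 to 2.10 on the 1:1 diet. Their part in the transferase results was not tested.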

How the data were processed

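Liver RNA of 20 rats was hybridised to Affymetrix rat arrays after 3′ in vitro transcription labelling, per the labels' protocols. The authors deposited 1 table of log10 signals normalized with the SuperNORM data service, per the labels. Its version, the probe summary and the genome build were not given in the sources used here. A log10 base was inferred from spike-in controls (slope 0.997, SD 0.0242, 20 arrays), and values were multiplied by 3.3219 to give log2. Titles were matched to diets by wording. Of 31099 probe sets, 57 controls and 3342 without values (2 in both) were left out, leaving 27702, of which 19147 had 1 gene symbol, 404 several and 8151 none.

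Group means of all 20 arrays were fitted with limma 3.58.1 (R 4.3.3; eBayes with trend, 16 residual degrees of freedom), with Benjamini-Hochberg adjustment over 27702 probe sets; the fit was tested on simulated data. Precision is limited by how many arrays there are. The genes, the lists and the rules for naming genes were chosen with earlier results of these data known: all 10 transferases, called list genes (or the smallest adjusted p), and the 3 most correlated genes. Of 79 listed pathway and regulator symbols 66 were measured. Alternatives were other scalings, a filter on dim probe sets, the arrays and spread model used, the replicate number as a block, and single arrays left out. The labels call the arrays biological replicates, and replicate numbers were not treated as pairs.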

Additional observations from a re-analysis of the deposited data

Results flagged for a closer look

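Within diets, 2 of 44 groups checked (11 probe sets in 4 diets) held 1 rat far from the other 4, and chance alone gives about 1 in 20. Gsta4 on the 1:1 diet had replicate 5 at 5.19, while the other 4 rats lay between 4.87 and 4.94, so that the gap took 0.772 of the whole range. That rat was also the one that kept the 1:1 and conventional Gsta4 values from separating. Gstt2 on the 3:1 diet had replicate 2 at 4.26, against 4.70 to 4.85 in the other 4, a gap of 0.752 of the range.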

How the results depend on the processing

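For 60 transferase differences, 20 fits without 1 array each and 9 other settings were run (8 for the soybean diets together). On conventional soybean the count of called transferases, 1, became 0 after centring and scaling, without the 2 arrays with the higher lowest signals and without number 1 of all groups, and ranged from 0 to 2 in the single omissions. On the 1:1 diet the count, 0, became 1 with the replicate block (Gstp3, adjusted p = 0.0179; among the list genes the block also called Gstm5 on conventional soybean, 0.0285) and 1 without number 1, and ranged from 0 to 1. For the 3 soybean diets together the count, 1, became 0 after centring and scaling and without the 2 arrays, and ranged from 0 to 2. The other comparisons had 0 throughout. Same-numbered rats did not deviate together in general (30 pairs, correlation -0.16 to 0.40, 12 over 0.1; 7 of 20 arrays closest to their own number), though those numbered 1 did (0.20 to 0.40). For Gstp3, the rat numbered 4 had the lowest signal in each of the 4 diets, and with the block its conventional soybean call had an adjusted p of 0.00406.

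Small, uncalled differences changed sign. After centring and scaling these were Gsta4 on the 3:1 diet (-0.0324) and over the soybean diets (-0.0535), Gstk1 (-0.0704) and Gsto1 (-0.0580) over the soybean diets, Gstm1 on the 1:1 diet (-0.00509) and Gstp1 on conventional soybean (-0.0229). Without the 2 arrays they were Gsta4 on the 3:1 diet (-0.0286), Gstk1 over the soybean diets (-0.0266), Gsto1 on conventional soybean (0.000392) and Gstp3 between the 1:1 and 3:1 diets (0.0566). Without number 1 they were Gstm3 on the 1:1 diet (-0.127) and Gstp1 on conventional soybean (-0.0202), which quantile normalization also turned (-0.000429). Single omissions turned Gsta4 on the 3:1 diet (-0.0369 to 0.0983) and over the soybean diets (-0.00856 to 0.0709), Gstk1 on the 3:1 diet (-0.00633 to 0.215), between the 1:1 and 3:1 diets (-0.0408 to 0.212) and over the soybean diets (-0.0289 to 0.171), Gstm3 on the 1:1 diet (-0.0343 to 0.394), Gsto1 on conventional soybean (-0.0917 to 0.0588) and the 3:1 diet (-0.102 to 0.0415), Gstp3 between the 1:1 and 3:1 diets (-0.397 to 0.122), and Gstt1 on the 1:1 diet (-0.0319 to 0.323) and between the 1:1 and conventional diets (-0.196 to 0.0407). The cause was not tested. Without the 2 arrays, 114 instead of 453 probe sets were called on conventional soybean.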
